A study of Mus musculus with 4 samples.

Results

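Narrow m6A peaks at stop codons were defined as distinct peaks that the authors labelled 3' UTR, spanned at most 500 nt of the genome, belonged to a protein-coding gene and had the centre of their exonic part within 200 nt of the stop codon on the longest coding transcript of that gene. This rule was met by 1873 of 20727 peaks, in 1768 genes. The peaks came from methylated RNA immunoprecipitation sequencing (MeRIP-seq), in which short poly(A) RNA fragments are captured with an antibody against N6-methyladenosine (m6A) and sequenced beside untreated fragments, called input. Splenic natural killer (NK) cells of wild-type C57BL/6 mice gave 2 m6A immunoprecipitate (IP) libraries and 2 input libraries without antibody. Per the methods of the study, a plasmid expressing IL-15 had amplified the cells in vivo before sorting, a condition that IP and input share. The labels give neither the age of the mice nor whether the replicates came from different animals. For age, the methods give only a range in weeks for the mice of the study as a whole.

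m6A is placed on messenger RNA in the nucleus by a complex around METTL3 and METTL14, preferentially at the consensus DRACH, where D stands for any base but C, R for a purine and H for any base but G. In mammalian transcripts the mark is known to be dense near stop codons and in the 3' UTR, particularly in long last exons. Reader proteins that bind it influence the decay, translation and processing of the RNA.

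All 4 libraries were combined in a single peak list, so each peak had 1 fold enrichment (IP over input) and 1 peak-calling p, given as log10 p, with no value per sample and no error between replicates. The depth of the libraries is unknown, and values are compared as descriptions without a test. Intervals are 95% Wilson intervals over peaks or genes, which are not replicates, and cover counting error only. Each of the 9 NK markers checked had a peak, as did 10 of 15 markers of B cells, T cells, myeloid and erythroid cells, and all 4 myeloid markers were among these. A narrow peak at the stop codon was found for 2 of the 9 NK markers, the receptor genes Klrk1 and Ncr1, with low folds of 1.18 and 1.16. It was found for 0 of the 10 other markers with a peak. Over all protein-coding genes with a peak the share was 17.4%, and counts this small do not set the marker groups apart. Genes of other cell types outside this short choice did have such a peak. Among them were Cd3d of the T cell receptor complex, the macrophage genes Cd68 and Mrc1, and C1qa, C1qb and C1qc. These genes were named after their values were seen, and the part of other cells in the results was not tested.

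The sequences at these peaks show how close motif and stop codon can lie. Stop codons and their surroundings are given first for members in genes of the lists described later with a highly significant p, with the stop codon in capitals, 12 nt on either side of it, 5′ to 3′ on the strand of the gene (GRCm38, GENCODE M21 transcripts).
Rpl30 (chr15:34440543-34440569, minus strand): actggtgagaagTAAacaagaaagttt
Pdia3 (chr2:121437685-121437711, plus strand): caagaggacctcTAAagcaacagccaa
Rps16 (chr7:28352625-28352651, plus strand): aaatcctaccgaTAAgcccatctcaag
Rpl23 (chr11:97778070-97778096, minus strand): ggcagcattgcaTGAttctccagtgta
Ccl3 (chr11:83648241-83648267, minus strand): gaactgaatgccTGAgagtcttggagg
Rpl30 and Rpl23 encode proteins of the large ribosomal subunit and Rps16 a protein of the small one, Pdia3 encodes the disulfide isomerase ERp57 that helps load MHC class I, and Ccl3 encodes a chemokine released by NK cells.

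Motif sites inside the peaks are given next for the 24 most significant of the members named from the lists that held a site within 1 exon, with 10 nt on either side of the A of the AC in DRACH, and the motif in capitals. The GGACH site nearest the peak centre was taken, or the nearest other DRACH site where the peak held no GGACH, which gave 14 GGACH and 10 other DRACH sites. They are shown in order of position relative to the last base of the stop codon, from the coding side to the 3' UTR side.
Rpl13, A 112 nt before the stop codon (chr8:123105080-123105100, plus strand): gaagagaaGAACTttaaggct
Rps16, 89 nt before (chr7:28352540-28352560, plus strand): atacgatcGGACCctgcttgt
Psmb10, 83 nt before (chr8:105935867-105935887, minus strand): tgctcctgGAACCacacctgt
Zfp326, 59 nt before (chr5:105914940-105914960, plus strand): agaggaggGAACCcaggagtt
Pcna, 51 nt before (chr2:132249657-132249677, minus strand): ctgacatgGGACActtaaagt
Ltb, 46 nt before (chr17:35196090-35196110, plus strand): gacatggtGGACTacaggaga
Rpl23, 43 nt before (chr11:97778115-97778135, minus strand): gagtgtgcAGACTtgtggccc
Ctsw, 40 nt before (chr19:5465371-5465391, minus strand): gctcaagtGGACTcaccagta
Klre1, 20 nt before (chr6:129585664-129585684, plus strand): gaacaaacTGACAtatatttg
Cd7, 1 nt past (chr11:121037032-121037052, minus strand): gtaccagtGAACCcctctgcc
Rpl30, 1 nt past (chr15:34440544-34440564, minus strand): tgagaagtAAACAagaaagtt
Atp5b, 4 nt past (chr10:128090113-128090133, plus strand): gtcgtgagGGACTccagccaa
Atp5d, 32 nt past (chr10:80145567-80145587, plus strand): ccacggggAAACTgagccagg
H2-T23, 48 nt past (chr17:36030130-36030150, minus strand): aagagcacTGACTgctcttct
Atp5l, 49 nt past (chr9:44913309-44913329, minus strand): atgttcttGGACCatgtgtaa
Psmb8, 63 nt past (chr17:34201319-34201339, plus strand): gagacctgGGACTacttcagt
Klra4, 110 nt past (chr6:130043919-130043939, minus strand): tgaccattGGACAtagtctgc
Sh2d2a, 110 nt past (chr3:87852508-87852528, plus strand): attcacgtGGACTcagctttg
Ccl3, 140 nt past (chr11:83648103-83648123, minus strand): acatcgagGGACTcttcactt
Pdia3, 142 nt past (chr2:121437831-121437851, plus strand): aaatacaaGGACCagtttatg
Klra3, 144 nt past (chr6:130323450-130323470, minus strand): gaacattgGGACTgtactctc
Fosb, 155 nt past (chr7:19304676-19304696, minus strand): tgacggaaGGACCtcctttgt
Grb2, 184 nt past (chr11:115645575-115645595, minus strand): taatgccaAAACTtaacctat
Bbc3, 193 nt past (chr7:16317417-16317437, plus strand): ggagatacGGACTtgggggga
A match marks letters in the window and not a methylated base, since a peak does not resolve single bases. At Rpl30 and Cd7 the matched A lay 1 nt past the stop codon, so the motif began within the codon itself.

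Position within the window followed in part from the 3' UTR label that the rule uses. The median centre was 59 nt past the last base of the stop codon (interquartile range -7 to 130, negative values lying on the coding side). The centre was past the stop codon in 72.9% of members (70.9 to 74.9%), in 31.2% of the 1612 other peaks within 200 nt of a stop codon, which are wider or carry another label, and in 53.6% (52.0 to 55.3%) of all 3485 peaks of coding genes there. The surplus on the 3' UTR side is therefore not a finding about members. In steps of 50 nt from 200 nt before to 200 nt past, the numbers were 34, 57, 155, 261, 368, 333, 324 and 341. They thus increased up to the first 50 nt after the stop codon and stayed at a similar level to the edge of the window. The whole stop codon was covered by 1107 members, or 59.1% (56.9 to 61.3%). The 3 members with their centre on the last base of the stop codon and the most significant p were at Rpl30, at Shkbp1, an adaptor gene linked to growth factor receptor turnover, and at Pim3, a serine/threonine kinase gene downstream of cytokine receptors, with fold enrichments of 2.61, 2.14 and 1.44.

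**Figure D1:**
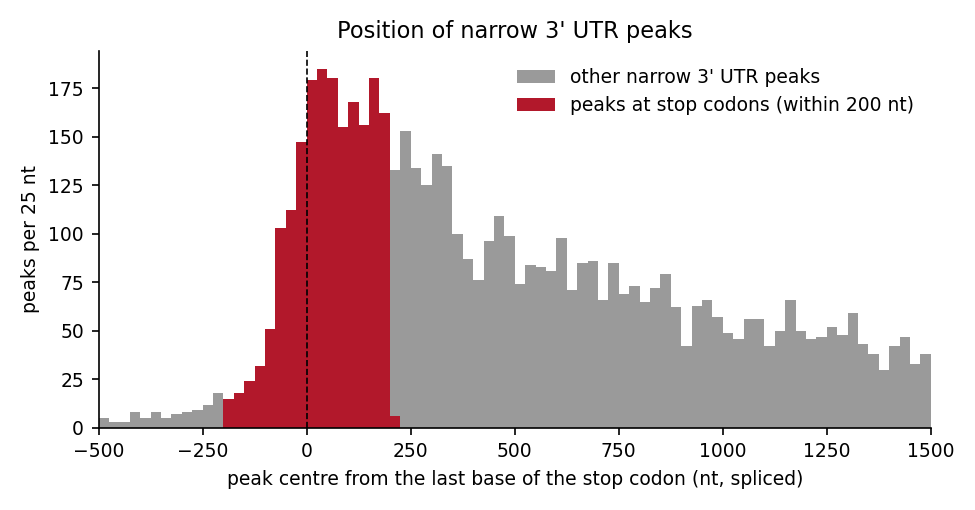
Number of narrow 3' UTR peaks in 25 nt steps by the spliced distance of the peak centre from the last base of the stop codon (x axis, nt, positive on the 3' UTR side), with the peaks at stop codons in red and the other narrow 3' UTR peaks in grey. The red bars reach 185 peaks between 25 and 50 nt and the numbers decline gradually beyond 200 nt, and the 6 members at exactly 200 nt stand in the step that begins there.

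The peaks did not form a cluster that ended at the edge of the window, although their number fell there. In transcripts with a 3' UTR of at least 1000 nt, narrow peaks per 100 nt numbered 125 in the last 100 nt before the end of the stop codon, 215 in the first 100 nt after it and 255 in the next. Over the following steps up to 1000 nt they numbered 182, 169, 170, 130, 171, 155, 199 and 217. The same count was 23 from 200 to 100 nt before the stop codon, where peaks seldom carry the 3' UTR label. At the limits of the rule, the members of Ube2q1 and Derl1 had centres at 200 nt and fold enrichments of 1.39 and 1.55, and the nearest peaks outside, at Gna11 and Glb1, lay at 202 nt with 3.65 and 1.58. The widest members, at Chmp2a and Arrdc1, spanned 498 nt with a fold of 1.61 each, and Mfsd5 and Gm3839 were just outside at 503 nt with 2.33 and 8.34.

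Genes with short 3' UTRs carried such peaks most often. Of genes with a peak placed on their coding transcript, 35.3% (32.4 to 38.2%) had a member where the 3' UTR was at most 200 nt, and 37.8% (35.0 to 40.6%) at 201 to 400 nt. The share was 17.0% (15.5 to 18.6%) at 401 to 1000 nt, 12.2% (10.9 to 13.6%) at 1001 to 2000 nt and 11% (9.87 to 12.2%) above that. In the shortest class 93.3% of 420 narrow 3' UTR peaks were members, where the window can hold the whole 3' UTR, and in the longest class 10.7% of 3015. The median 3' UTR was 484 nt over members, against 1820 nt over the 5826 narrow 3' UTR peaks with a centre more than 200 nt past the stop codon, called distal peaks here. A short 3' UTR leaves no room for a distal peak, so part of this difference follows from the rule. A member ended within 50 nt of the annotated transcript end in 30.2% of cases (28.2 to 32.3%), and a distal peak in 34.1%.

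**Figure D2:**
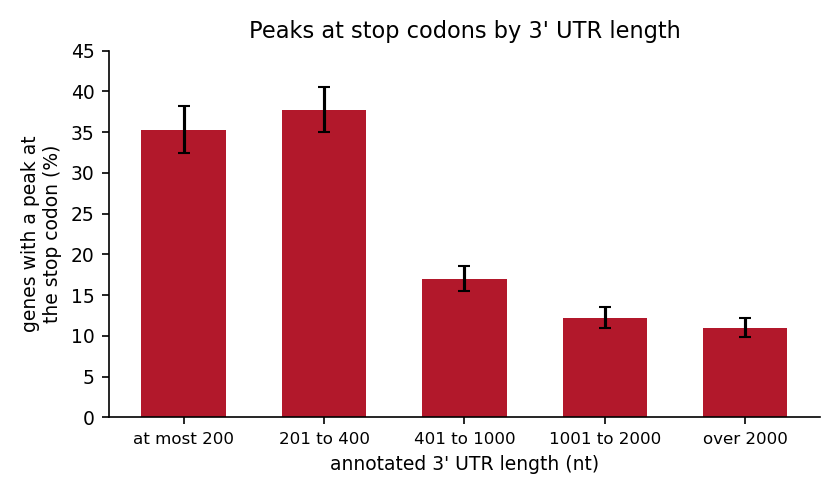
Percentage of genes with a placed peak that had a narrow peak at the stop codon (y axis) by the annotated length of the 3' UTR (x axis, nt). Bars are shares and whiskers 95% Wilson intervals for counting error, and the share falls from 37.8% at 201 to 400 nt to 11% above 2000 nt.

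Stop codon peaks lay in last exons. The stop codon was in the last exon for 97.3% of members (96.5 to 98.0%), beside 95.2% of distal peaks and 95.4% of the longest transcripts of all coding genes. The centre lay a median of 231 nt into the last exon (interquartile range 140 to 347), the stop codon 153 nt into it and the first base of the peak 121 nt into it. In 3.84% (3.06 to 4.81%) the centre lay before the last exon. A splice junction was crossed by 4.81% (3.93 to 5.87%) of members, against 66.9% of the 1612 other peaks within 200 nt of a stop codon. Of those others, 1332 were wider than 500 nt, and because the width counts introns, the width limit itself removed most peaks that run over a junction. The stop codon was shared by all coding isoforms of the gene for 73.3% of members, so in the remaining 26.7% the position holds for the longest coding transcript and may differ in another isoform.

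The stop codons themselves resembled those of all genes. In the genes with a member 52.8% of stop codons were TGA, 23.9% were TAA and 23.2% were TAG, beside 49.2%, 27.9% and 22.9% over all coding genes. The last amino acid codon had the letters AAC or GAC, the core of DRACH, in 148 genes with a member (8.37%), in 6.92% of genes with a placed peak and in 6.09% of all coding genes.

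The consensus was common in the members, and its G-rich forms were more frequent than in distal peaks. A DRACH site on the strand of the gene was present in 93.5% of members (92.3 to 94.5%) and in 92.4% of distal peaks, which had the same median exonic length of 180 nt. Per kb of peak there were 22.4 DRACH sites in members, 20.4 in distal peaks and 20.998 in the other peaks near stop codons. GGAC was present in 53.3% of members (51.0 to 55.5%) and in 40.4% of distal peaks (39.2 to 41.7%), and GGACH occurred 4.45 times per kb against 2.91. Of the other peaks near stop codons, whose median exonic length was 330 nt, 70.2% held a GGAC, with 3.91 GGACH per kb. Among the 18 pentamers of DRACH, the share taken by GGACC was 1.58 times that in distal peaks, and the ratio was 1.34 for GGACA and 1.31 for GGACT. The A-rich form AAACA stood at 0.694 and TAACA at 0.614. Members also had a higher GC content, with a median of 50% against 42.6%, and its part in these differences was not tested.

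Beside other sequence around stop codons the difference was small. In the genes with a member, the 200 nt on the coding side held 23.3 DRACH sites per kb inside the peaks and 21.6 outside them, and the 3' UTR side 22.5 and 21.1. GGACH occurred 5.02 times per kb inside and 4.71 outside on the coding side, and 4.47 and 3.94 on the 3' UTR side. In 4758 genes that had peaks but none touching the window, the values were 22.3 DRACH and 4.61 GGACH on the coding side and 21.5 and 3.93 on the 3' UTR side. By distance, GGACH in genes with a member was highest in the first 50 nt past the stop codon, at 5.43 per kb, and fell to 3.16 between 150 and 200 nt. The other genes followed the same course from 4.77 to 3.37, so the decline was not particular to genes with a member.

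**Figure D3:**
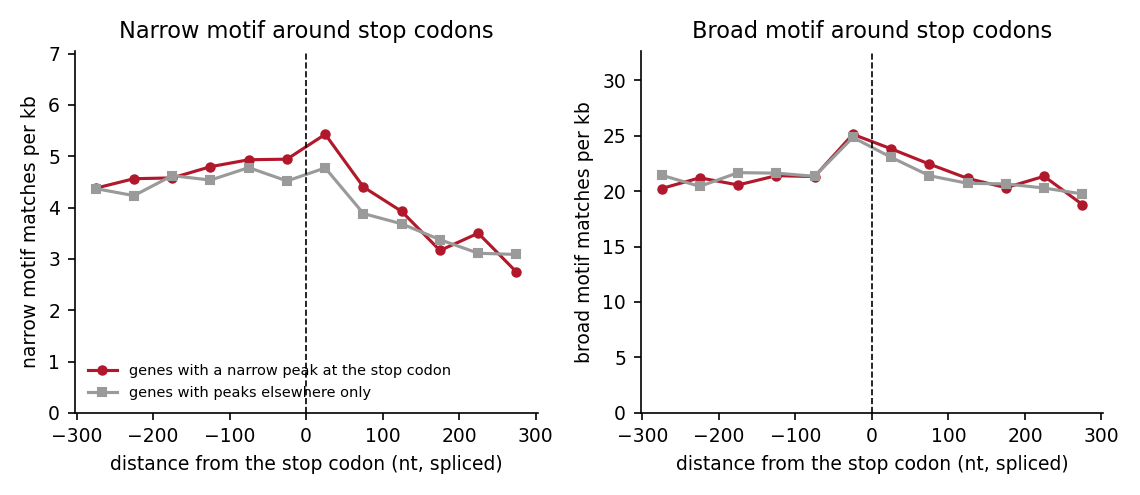
Matches per kb of the narrow motif GGACH (left) and the broad motif DRACH (right) by spliced distance from the stop codon (x axis, nt, in 50 nt steps), for the genes with a narrow peak at the stop codon (red) and the genes that had peaks but none touching the window (grey). Both sets follow nearly the same course, and the GGACH values in the first 50 nt past the stop codon are 5.43 and 4.77 per kb.

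Position within the window went with small differences. The 91 members centred more than 100 nt before the end of the stop codon had a median fold enrichment of 1.64, the 416 in the next 100 nt 1.71, the 701 in the first 100 nt past it 1.72 and the 665 beyond 1.83. The median log10 p was between -5.35 and -5.01 in these classes. GGACH sites fell from 4.86 through 4.79 and 4.43 to 4.23 per kb, and median GC content from 56.0% to 47.5%, in the same order.

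Enrichment at stop codons was modest but often well supported. The median fold enrichment of members was 1.76 (interquartile range 1.47 to 2.28, extremes 1.05 and 79.7), beside 1.96 (1.59 to 2.98) in distal peaks and 1.99 in the other peaks near stop codons. A fold enrichment of at least 5 was reached by 113 members, or 6.03% (5.04 to 7.20%), against 34.6% of all peaks in the list and 13.2% of distal peaks. At least 2 was reached by 674 (36.0%), against 63.9% of all peaks. Over all peaks the upper quartile of fold was 9.48, a value that 18 members also had. The part of such repeated values in the shares of the whole list was not tested. A peak-calling p under 0.001 was met by 1366 members, or 72.9%, against 61.5% of all peaks and 62.7% of distal peaks. The other peaks near stop codons, most of them wider, met it in 81.2% of cases. The median log10 p was -5.16 in members, -3.9 in distal peaks and -10.1 in the other peaks near stop codons. Members were thus less often strongly enriched than the list as a whole, and more often significant than the list and the distal peaks but less often than the other peaks near stop codons.

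Significance went with width rather than with enrichment. Over the members, the rank correlation with significance was 0.664 for width and 0.0837 for fold enrichment, given as a description, since peaks of 1 list share their libraries and depth. The median fold enrichment was 2.145 in the 100 most significant members and 3.41 in the 100 least significant. It was 1.555 in 388 members of at most 100 nt and 1.98 in 426 members over 300 nt. Widths were within 1 nt of a multiple of 30 in 83.9% of members. Of the 113 members with a fold of at least 5, 62 (54.9%) had a log10 p not under -3, and 18 had the same fold of 9.48. Conversely 26 of the 33 members with a log10 p under -100 had a fold enrichment under 5.

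The most significant members were in genes of the cytoskeleton, the ribosome, iron storage and protein folding. Tmsb10, which encodes an actin-sequestering thymosin, had a log10 p of -817 with a fold of 2.26, its centre 115 nt past the stop codon. Rpl30 followed with -565 and 2.61, and Fth1, the ferritin heavy chain gene that stores iron, with -450 and 1.84. Pdia3 differed from these in having both a log10 p of -443 and a fold of 59.6. Rpl13, another large ribosomal subunit gene, had -434 and 3.52, and its peak also overlapped an exon of another gene on the same strand. The highest fold enrichments were 79.7 at Zfp326, a zinc finger gene involved in splicing, 59.6 at Pdia3, 55.0 at Ccpg1os, 54.1 at Isg15, an interferon-induced ubiquitin-like protein gene, and 37.9 at the zinc finger gene Zfp786. Their log10 p values were -37.3, -443, -16.3, -23.5 and -8.12, so they differed widely in support.

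**Figure D4:**
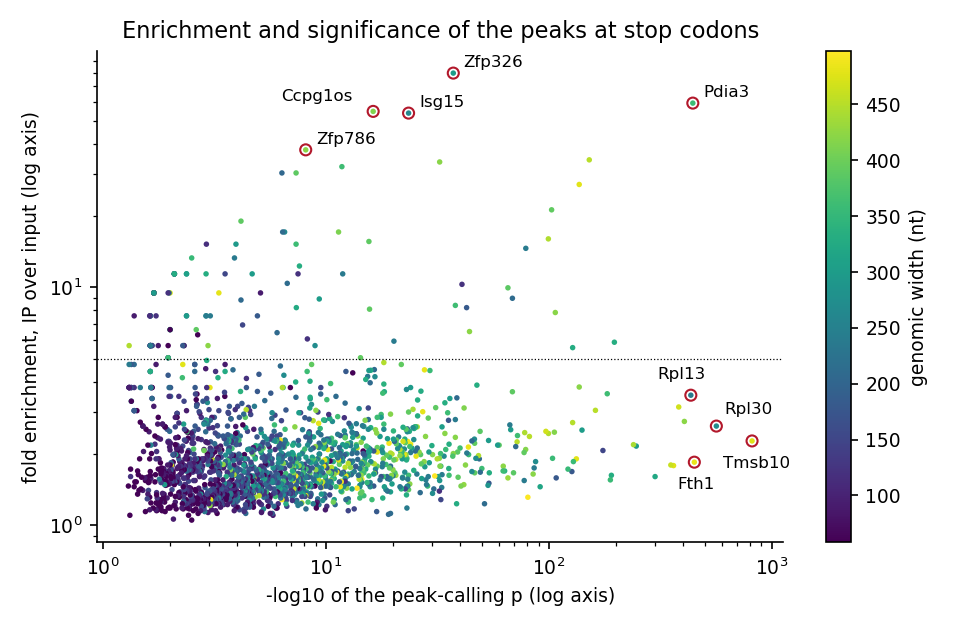
Fold enrichment of IP over input (y axis, log scale) against -log10 of the peak-calling p (x axis, log scale) for the 1873 narrow peaks at stop codons, coloured by genomic width in nt, with a dotted line at a fold of 5. Circles mark the 5 most significant members and the 5 with the highest fold, and Pdia3 alone is in both sets, while most wide and significant peaks lie under a fold of 5.

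Genes of NK cell biology were examined by list. Of 10174 protein-coding genes with any peak, 17.4% had a member, and over the 17 lists it was 145 of 796 genes with a peak (18.2%). NK cell receptors (11 of 34 genes, 32.4%, 19.1 to 49.2%) and MHC class I presentation genes (9 of 21, 42.9%, 24.5 to 63.5%) had shares whose intervals lay above 17.4%. The remaining lists ranged from 10% for cell cycle genes to 27% for mRNA decay genes, with 0 of 10 for markers of other cell types. The lists share genes with each other, and no list was tested against the rest. They were also not matched for 3' UTR length, and its part in the shares was not tested. The NK receptor genes with a member had a median 3' UTR of 308 nt. Among genes with a placed peak and a 3' UTR of 201 to 400 nt, 37.8% had a member.

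**Figure D5:**
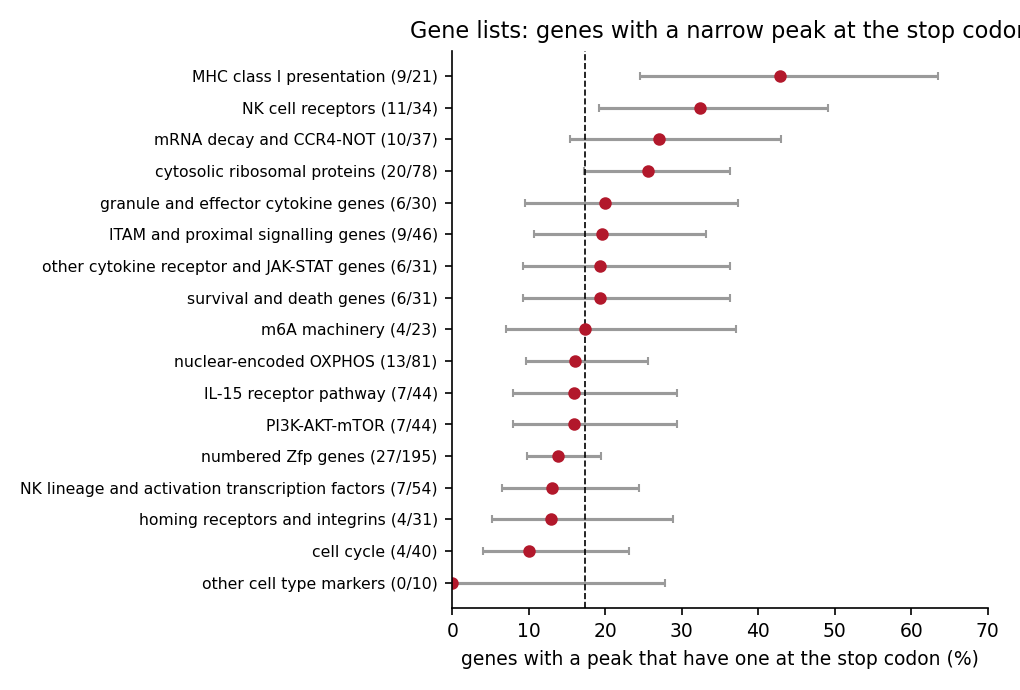
Percentage of genes with a peak that had a narrow peak at the stop codon (x axis) for each of 17 gene lists, with the numbers of genes in parentheses and 95% Wilson intervals for counting error as whiskers. The dashed line is the 17.4% of all protein-coding genes with a peak, which is inside the interval of every list except NK cell receptors and MHC class I presentation.

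NK receptors had folds up to 2.48, and 3' UTRs from 81 to 2463 nt with a median of 308 nt. The most significant were Klra4 and Klra3, which encode receptors of the Ly49 family for MHC class I, Klre1, a lectin-like receptor gene, and Cd7, a surface glycoprotein gene of NK and T cells. Klra4 had a fold of 2.48 and a log10 p of -49.2, and its peak of 386 nt reached the transcript end 308 nt past the stop codon. Klre1 had 1.91 and -47.1, Klra3 had 1.98 and -43.7, and Cd7 had 1.23 and -38.6. The Klra4 and Klra3 peaks held 18 and 11 DRACH sites, of which 3 and 1 were GGACH. Members of the Ly49 family are close in sequence, so reads may have been shared between their genes. Over the 11 receptor members the folds ranged from 1.15 to 2.48, the other genes being Cd27, Cd96, Klra1, Klrb1f, Klrk1, Lag3 and Ncr1.

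Among granule and effector cytokine genes, 6 of 30 with a peak had a member (20%). Ltb, which encodes lymphotoxin beta, stood out in its list with a fold of 9.96 and a log10 p of -65.6, its centre 28 nt before the end of the stop codon. Its peak held 9 DRACH sites, 4 of them GGACH. Ccl3 had 2.18 and -240, Ctsw, a cysteine protease gene of cytotoxic cells, had 1.58 and -65.6, and Unc13d, which encodes the granule priming factor Munc13-4, had 1.45 and -8.64. The other members of the list were in Fasl, which had a pair, and Tnf.

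Signalling downstream of IL-15, the cytokine used to expand the cells, was represented by 7 of 44 genes (15.9%). Grb2, an adaptor between receptors and RAS, had a fold of 2.08 and a log10 p of -78.8, with 8 DRACH sites of which 0 were GGACH. Myc had 1.58 and -22.1 at 48 nt past the stop codon, and this was the only peak of the gene. Socs3, a feedback inhibitor of JAK kinases, had 1.71 and -20, and Akt2, a kinase downstream of PI3K, 1.83 and -16.1. In the list of other cytokine receptor and JAK-STAT genes (6 of 31, 19.4%), Jak2 had 1.47, Pias1 had 1.97, Ifngr2 had 1.34 and Pias3 had 1.74, with log10 p between -7.37 and -3.47. PI3K-AKT-mTOR genes (7 of 44, 15.9%) included Lamtor4, a subunit of the lysosomal Ragulator complex, at 2.02 and Ddit4, an inhibitor of mTORC1, at 1.57. All of these folds were between 1.34 and 2.08.

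Antigen receptor-type and adhesion genes gave similar values. Of the ITAM and proximal signalling genes, 9 of 46 (19.6%) had a member. Sh2d2a, which encodes a T cell-specific adaptor, had a fold of 1.77 and a log10 p of -62.5, and Zap70, the kinase recruited to ITAMs, 1.70 and -24.8. In homing receptors and integrins (4 of 31, 12.9%) the folds were 1.22 at Icam1, 1.70 at Icam2, 1.27 at Cd47 and 1.23 at Was. Survival and death genes (6 of 31, 19.4%) had a median of 2.305, with 2.82 at Bbc3, which encodes the BH3-only protein PUMA, 2.52 at Birc6, 2.09 at Ripk3 and 1.61 at Tnfrsf1a. The Bbc3 peak held 7 GGACH sites among its 10 DRACH sites.

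Transcription factor genes with a member were 7 of 54 (13%). Fosb, an AP-1 subunit gene of the immediate early response, had a fold of 3.81 and a log10 p of -137, with 17 DRACH sites of which 5 were GGACH. Runx1, a lineage factor of blood cells, had 2.83 and -8.05, and Egr1, another immediate early gene, 1.23 and -8.77. Genes of the m6A machinery themselves carried a member in 4 of 23 cases (17.4%). Prrc2a, a proposed m6A reader gene, had 5.69 and -8.94. The methyltransferase complex subunits Wtap, Zc3h13 and Virma had 1.23, 1.43 and 1.25 with log10 p of -4.73, -2.47 and -1.82, and the last 2 peaks held 0 DRACH sites.

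MHC class I presentation genes had the largest share of any list, and low folds apart from Pdia3 and Tap2 (4.37). H2-T23, which encodes Qa-1, the ligand of the CD94-NKG2A receptor of NK cells, had 1.74 and -86.0. The immunoproteasome subunits Psmb10 and Psmb8 had 1.62 and 1.44. Over the 10 members of this list the median fold was 1.43. The others were in H2-Q7, Psme2, Tap1, Tapbp and the peptide transporter gene Tap2, and MHC class I genes are close in sequence, so that reads of H2-Q7 may have come from its relatives. Cell cycle genes (4 of 40, 10%) had the lowest share among lists with a member, with folds of 1.54 at the replication clamp gene Pcna, 1.43 at Mcm5, 1.52 at Ccne1 and 15.2 at the inhibitor gene Cdkn2a, whose log10 p was -3.95.

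Genes of RNA decay, translation and respiration had median centres nearer the stop codon than all members, or before it. This was not particular to them, since the median centre stood at 5 nt for numbered Zfp genes and -15 nt for m6A machinery genes. In mRNA decay and CCR4-NOT genes (10 of 37, 27%, median 27 nt past), Cnot3 had overlapping members with folds of 1.88 and 2.01, which also overlapped an exon of a gene on the other strand. Zfp36, whose product binds AU-rich elements, had 1.12 and -19.5, and Cnot1, the scaffold of the deadenylase complex, 1.35 and -5.23. Ribosomal protein genes (20 of 78, 25.6%) had a median centre 61 nt before the end of the stop codon, against 59 nt past it for all members. Rps16 had 3.14 and -383, and Rpl23 1.79 and -353. These genes have many processed pseudogenes, to which reads may have been assigned. Of the oxidative phosphorylation genes 13 of 81 (16.0%) had a member, with a median centre 12 nt past the stop codon, among them the ATP synthase genes Atp5b (2.51, -141), Atp5l (2.38, -72.4) and Atp5d (1.66, -69.5) and the complex I gene Ndufb5 (2.54, -23.2), of whose 211 nt peak only 34 nt were exonic on the longest coding transcript. Numbered Zfp genes had a member in 27 of 195 cases (13.8%), including Zfp777 at 4.10 and Zfp91 at 1.75 beside Zfp326.

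Most genes had further peaks. For 603 of the 1768 genes the member was the only peak, and 1165 genes (65.9%) had another peak of any kind. In these 1165 a member was the most significant peak of the gene in 614 (52.7%) and had the highest fold in 302 (25.9%). The shares that would arise with no preference among the peaks of a gene were not computed, so neither is read as high or low. A distal narrow peak was also present in 467 genes (26.4%). There the median fold, taking the highest of each kind, was 1.55 at the stop codon and 1.95 further out, and the stop codon peak had the higher fold in 110 genes and the distal peak in 352. Distal peaks numbered 5826 in 4391 genes and members 1873 in 1768. The highest could thus be taken over more distal peaks, which was not corrected for. The stop codon peak was the more significant in 224 of the 467 (48.0%), with median log10 p of -4.62 and -4.89.

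Single genes showed both orders. At Socs3 the stop codon peak (1.71, log10 p -20) was weaker than a peak 1295 nt past the stop codon (2.95, -62.3). Jak2 had 1.47 and -7.37 at the stop codon and 2.94 and -16.5 at 992 nt past it. Cd47, which encodes a signal against phagocytosis, had 1.27 and -6.64 and, 3953 nt past the stop codon, 2.72 and -58.1. Fosb had the opposite order, with 3.81 and -137 at the stop codon and 1.77 and -38.1 in a 598 nt peak centred 1846 nt past it. Grb2 had nearly equal folds of 2.08 and 2.18 with log10 p of -78.8 and -14.8, the latter at 1501 nt. Within the writer complex, Zc3h13 had 1.43 at the stop codon and 9.42 with a log10 p of -43.1 in a peak 2801 nt before it.

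A minority of members cannot be tied to 1 gene. An exon of a gene on the other strand was overlapped by 158 members (8.44%, 7.26 to 9.78%) and an exon of another gene on the same strand by 66 (3.52%). More than 1 member was found in 96 genes. The largest number was 7 at Ugt1a6a, a glucuronosyltransferase gene that shares its last exons with neighbouring isoform genes, where the members overlapped each other 54 to 83 nt before the end of the stop codon. Such overlapping peaks are not independent counts.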

How the data were processed

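m6A IP and input RNA of NK cells were measured in 2 libraries each. Per the study's methods, the authors trimmed reads, mapped with HISAT2, called peaks with exomePeak and annotated them with ChIPseeker. The build was GRCm38 per the labels. The deposited fold enrichment is a ratio of IP over input, and the deposited significance is a score, the log10 of an unadjusted peak-calling p, at most -1.3. How replicates were combined, the depth and its scaling are not given in the sources used here. The list held 20751 rows, of which 24 were exact repeats and 0 columns held a value per sample.

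From the list, 11046 peaks were labelled 3' UTR, 8608 of these spanned at most 500 nt, 8518 were in protein-coding genes and 7859 were placed on the longest coding transcript (GENCODE M21). Of the peaks within 200 nt, 3 were left out because their transcript had no annotated stop codon. Offsets run from the last base of the stop codon to the centre of the exonic part. Motifs were counted on the strand of the gene in the exonic part, and both steps were tested on simulated data. Members and lists were chosen with earlier results of these data known. Named genes were at most 4 members per list by p, the 5 with the most significant p, the 5 with the highest fold, the 3 closest to the stop codon and 2 on either side of each limit. A few genes that this rule names are not reported here. Other genes named in a list are further members, and the genes compared for both orders, Ugt1a6a, the genes of other cell types and the genes under other observations were chosen after their values were seen. Alternatives changed the width, window, transcript, centre, thresholds, motif and merging. Python 3.11.15, pandas 2.3.3, numpy 2.4.6 and scipy 1.17.1 were used.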

Additional observations from a re-analysis of the deposited data

How the results depend on the processing

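Of 84 alternative values for 9 results, 59 moved by less than the limit for their kind and 25 moved further. The limit for counts was wide. Beside 1873 members by the rule, 1447 at a width of at most 300 nt counted as within it. So did 2466 with a window of 300 nt and 1366 at a p under 0.001. The alternative of transcripts with a 3' UTR of at least 400 nt was chosen after seeing the data. At a width of at most 300 nt the median fold was 1.7 and the GGAC share 47.8%. With a window of 100 nt there were 1119 members, 62.6% past the stop codon, a median fold of 1.72, 185 nt from the last exon start and 93 list genes, and with 300 nt the share past the stop codon was 77.5% and the distance 270 nt. With the centre of the genomic span the distance was 238.5 nt. At a p under 0.001 the GGAC share was 60.03% and the share of genes with another peak 53.2%. At a fold of at least 2 there were 674 members, a median fold of 2.59, 98.1% with the stop codon in the last exon, 258 nt, 43.8% of genes with another peak and 44 list genes. In 3' UTRs of at least 400 nt there were 1024 members, a median fold of 1.68, 22.9 DRACH sites per kb, 240.5 nt, 75.4% of genes with another peak and 85 list genes. GGACH occurred 4.45 times per kb. Narrower windows and thresholds keep fewer peaks by construction. By construction too, a fold threshold raises the median fold, and the window limits how far centres lie from the stop codon. The cause of the other moves was not tested. The longest coding sequence gave 1942 members, of which 1830 were the same peaks. No paired analysis was possible because no column of the list belongs to a single sample, and leaving out each replicate was not run for want of such columns. Unknown depth limits the weaker peaks.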

Other observations

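Genes outside the lists also had highly significant members. C1qa, C1qb and C1qc, which encode the chains of complement C1q and are known from macrophages, had fold enrichments of 1.55, 1.68 and 1.78 with log10 p of -189, -127 and -363. Fcgr1, a high-affinity Fc receptor gene of myeloid cells, had 2.43 and -99.7. Cd68, a lysosomal protein gene of macrophages, had 1.67 and -49.3, and Mrc1, the macrophage mannose receptor gene, 1.36 and -30.1. Chil3, Lcn2, Fpr1 and Clec12a, further genes known from myeloid cells, had folds from 1.3 to 1.9. The T cell gene Cd3d had 2.55 and -9.43. All 4 myeloid markers checked had a peak, of which 0 were members, so these 4 did not stand for the other myeloid genes. The part of other cells in these peaks was not tested.

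High fold and high significance met in few members. A fold of at least 5 with a log10 p under -20 was found in 19. They included Tkt, a transketolase of the pentose phosphate pathway (5.88, -197), Pam, an enzyme of peptide amidation (34.4, -152), Psmd13, a proteasome subunit gene (27.1, -137), U2af2, a splicing factor gene (5.58, -128), Sars, the seryl-tRNA synthetase gene (7.84, -107), and Zbtb38, a zinc finger gene (21.2, -103). The same class held Prmt1, an arginine methyltransferase gene (10.3, -40.8), and Rasgrp2, an activator of RAP1 (8.22, -42.8).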
